A study of Mus musculus with 6 samples.

Results

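The respiratory chain of the mitochondrial inner membrane was followed at the RNA level in group 2 innate lymphoid cells (ILC2s) sorted from mouse lung, the tissue-resident lymphocytes that release type 2 cytokines after alarmin signals. The members were the protein-coding genes of the deposited table whose symbols begin with 1 of 16 prefixes: the Ndufa, Ndufb, Ndufc, Ndufs and Ndufv genes of complex I, Sdha, Sdhc and Sdhd of complex II, the Uqcr genes of complex III, the Cox4 to Cox8 genes of complex IV, the Atp5 genes of complex V, and the mt- genes, which lie on the mitochondrial DNA. Genes within 10 Mb of Cnr2 on chromosome 4 were left out by the same rule, which removed 0 genes with these prefixes. The rule gave 107 of 18478 listed genes, 94 of them nuclear and 13 mitochondrial, and 106 were abundant enough to be tested.

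The 2 groups were 3 libraries of wild-type (WT) cells and 3 of cells from mice without cannabinoid receptor 2 (CB2 KO). CB2 is a G protein-coupled receptor found mainly on immune cells, and Cnr2 is its gene. All animals were BALB/c mice 6 weeks old that had received recombinant IL-33 into the airways, 3 doses of 1 µg, and sorted cells of both groups were kept for 24 h in IL-2 plus IL-7 (10 ng/mL of either). The labels do not describe the knockout allele, and they leave unsaid whether each library is a different mouse. P-values therefore cover only the spread between these libraries, which may be technical. The question was how CB2 affects the transcriptome of lung ILC2s, and CB2 KO against WT is the only comparison.

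Oxidative phosphorylation passes electrons from NADH through complex I, or from succinate through complex II, to coenzyme Q, on through complex III and cytochrome c, and to oxygen at complex IV. Complexes I, III and IV pump protons, and complex V, the ATP synthase, lets them flow back to make ATP. Complex II is built wholly from nuclear genes. The other complexes join nuclear subunits, made in the cytosol and imported, to subunits made inside the mitochondrion from mt- genes. Of the members, 37 nuclear and 7 mt- genes encode subunits of complex I, 3 nuclear genes subunits of complex II, 8 nuclear and 1 mt- gene subunits of complex III, 15 nuclear and 3 mt- genes subunits of complex IV, and 17 nuclear and 2 mt- genes subunits of complex V. A further 13 nuclear members are assembly factors, and Cox5b-ps, listed as protein coding, is a copy of Cox5b. Despite their prefixes, Ndufa4 is counted in complex IV and Cox7a2l among the assembly factors.

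Levels are counts scaled to library size (CPM). Cnr2 was at 9.32, 17.4 and 15.8 CPM in WT replicates 1 to 3 and at 9.24, 1.6 and 3.84 CPM in the libraries labelled CB2 KO replicates 1 to 3. The library labelled CB2 KO replicate 1 was thus level with the lowest WT library for the targeted gene, and it stood apart from the other 5 libraries on the first principal component of all genes, at 151 against -35.6 to -24.6. Every CB2 KO value below includes it unless stated. Libraries held 17141698 to 21621008 estimated counts. Of 14 ILC2 markers, 3 had positive and 11 negative log2 fold changes, with a median of -0.13 and 6 at an unadjusted p under 0.05. Over all tested genes, 8.6% were at such a p. Gata3, Il7r, Il2ra, Icos, Klrg1, Thy1 and Id2 were lower in every CB2 KO library than in any WT library. The cytokine gene Il5, at 7343 ± 469.6 against 9021 ± 1070 CPM (SD, n = 3 each), was higher without overlap and made up much of the list's sum of 14990 to 16380 CPM in WT and 15190 to 17660 CPM in CB2 KO. Markers of macrophages and monocytes (6 of 8 in the table) summed to 14.4 to 59.2 CPM against 150.2 to 168.8 CPM, and all 4 tested had positive log2 fold changes. Chil3 was at 0.559, 8.68 and 47.5 against 143, 108 and 134.5 CPM and Lyz2 at 1.12, 1.27 and 2.55 against 10.4, 20.2 and 21.2 CPM (adjusted p of 0.275 and 0.0693), whereas Csf1r was at 0 in 3 libraries and Mrc1 in 5. Those of mast cells and basophils (7 of 7) summed to 17.5 to 28.3 against 41.4 to 86.9 CPM, and dissociation and stress genes to 898 to 936 against 938 to 1088 CPM. T cell markers (7 of 9 in the table) summed to 189 to 200 CPM against 199 to 221 CPM, with 4 positive and 1 negative log2 fold change among those tested. Cd3g was at 9.6, 17.2 and 15.1 against 25.6, 28.9 and 23.9 CPM, Trbc1 was also higher without overlap, and Trbc2, the most abundant, was at 113 to 138 CPM over all libraries. Cd3d, Cd3e and Trac were at most at 3.18 CPM, and Cd4 and Cd8a are not analysed here. B cell markers (3 of 6) were at 20.5 to 54.5 against 25.4 to 33.6 CPM, and lung epithelial and endothelial markers at 50.7 to 144.6 against 47.5 to 58.5 CPM (4 of 7). The part of these other cells and of stress in the results was not tested.

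Several members share letters with a neighbour or with a copy elsewhere in the genome, which bears on how reads could be divided, so the stretches that matter are shown here (GRCm38 coordinates and GENCODE M21 transcripts). On the mitochondrial DNA the reading frames of mt-Atp8 and mt-Atp6 overlap by 43 bases, and those of mt-Nd4l and mt-Nd4 by 7. The capitals below mark those shared bases, which open with the start codon of the second gene and hold the end of the first, at chrM:7907-7989 and chrM:10147-10193 on the plus strand.
mt-Atp8 and mt-Atp6: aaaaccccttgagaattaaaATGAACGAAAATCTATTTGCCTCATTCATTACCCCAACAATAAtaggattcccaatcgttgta
mt-Nd4l and mt-Nd4: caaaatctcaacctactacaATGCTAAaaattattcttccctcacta
Ndufs5, an accessory subunit of complex I, has a processed copy on chromosome 16, Ndufs5-ps, that matches its coding sequence in 99.4% of 319 bases. The 2 bases that differ fall at positions 81 and 105 of the coding sequence, counted from its first base, and are in capitals in the same window of the gene (chr4:123715969-123716029, minus strand, exonic) and of the copy (chr16:42955681-42955741, plus strand).
Ndufs5: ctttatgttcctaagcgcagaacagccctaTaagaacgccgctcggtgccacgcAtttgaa
Ndufs5-ps: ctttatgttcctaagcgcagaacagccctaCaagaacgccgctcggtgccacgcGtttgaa
Gm29216, a copy of the end of mt-Co1 on chromosome 1, departs from it at 1 of 483 aligned bases, in capitals at position 1066 of the coding sequence (chrM:6390-6423, plus strand, and chr1:24616155-24616188, minus strand).
mt-Co1: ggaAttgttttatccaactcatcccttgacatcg
Gm29216: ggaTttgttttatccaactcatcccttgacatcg

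In WT cells the mt- genes had a higher median level for their length than the nuclear subunits, but they spread widely. Levels per length are given as CPM per kb of the best supported protein-coding transcript. The median was 600.3 CPM per kb for the 13 mt- genes, 168.5 for the 79 tested nuclear subunits (126 with the longest transcript of each gene) and 17.6 for the 13 assembly factors. The mt- median is the level of mt-Co1, and the mt- genes below it lay far lower. From mt-Nd4 through mt-Nd5, mt-Nd2, mt-Nd6 and mt-Nd3 to mt-Nd4l they ran from 208 down to 56.4 CPM per kb. As deposited, the highest level was that of mt-Atp8, a small subunit of the ATP synthase membrane part, at 1175 ± 79.6 CPM per kb (SD, n = 3), followed by mt-Cytb, the cytochrome b of complex III, at 1065 ± 25.8, and mt-Atp6, the proton channel subunit of complex V, at 1009 ± 81.6. The highest nuclear gene was Atp5b, which encodes the catalytic beta subunit of complex V, at 972 ± 34.6 CPM per kb. mt-Atp8 lay above mt-Cytb by more than either SD, whereas mt-Cytb, mt-Atp6 and Atp5b each lay within 1 SD of mt-Atp6 of the next in order. This order depends on how reads were shared with identical copies: with copies added, mt-Atp6 was at 1869 ± 161 and mt-Co3 at 1853 ± 205 CPM per kb, above mt-Atp8 and mt-Cytb, which have no copy in the table.

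The mt- subunits of complex I had a median of 128 CPM per kb, close to the 106 of their 37 nuclear partners. Of these mt- genes, mt-Nd1 stood at 727 CPM per kb and mt-Nd4l at 56.4, or at 103.8 with its copy added. In complex IV the mt- genes had a median of 658 against 303 CPM per kb for the nuclear subunits, and in complex V 1092 against 239.5. These medians are as deposited, and adding copies raises genes on both sides. With copies added, mt-Co2 was at 1073 and the nuclear Cox7c at 403 CPM per kb in complex IV. In complex V, mt-Atp6 was then at 1869 and the nuclear Atp5h at 461 CPM per kb. Among nuclear subunits of complex I the most abundant per length were Ndufb7 at 291 ± 38.5 and Ndufb8 at 290 ± 37.5 CPM per kb (SD, n = 3). These 2 cannot be ranked. The most abundant elsewhere were Sdhd, a membrane anchor of complex II, at 168.5, Uqcrq in complex III at 466 and Cox6a1 in complex IV at 610 CPM per kb. The tissue-restricted forms of complex IV were scarce: Cox6b2 was at 13, Cox6a2 at 4.1 and Cox7a1 at 1.84 CPM per kb. Cox4i2, the lung form of Cox4, had 0 to 11 counts per library and was removed by the filter on low counts, whereas its usual form Cox4i1 was at 495 CPM per kb.

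**Figure D1:**
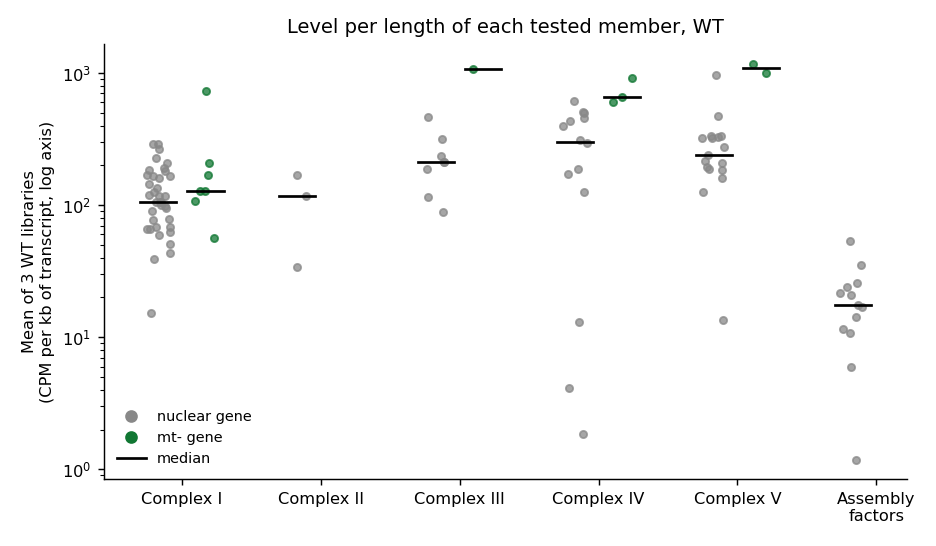
Each point is 1 tested member, at its mean over the 3 WT libraries in CPM per kb of transcript on a log axis, by complex and by the genome that encodes it, with a bar at each median. The mt- genes of complexes III, IV and V sit at 600.3 CPM per kb or above, and the 13 assembly factors have a median of 17.6.

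No respiratory chain gene passed the threshold in CB2 KO against WT. In the quasi-likelihood test of edgeR (p-values adjusted by Benjamini and Hochberg), 0 of 106 members had an adjusted p under 0.05, against 15 of all 14084 tested genes, or 0.107% (0.0426% higher and 0.0639% lower in CB2 KO). The same count was 0 when the library labelled CB2 KO replicate 1 was left out, where 0.0535% of genes passed. At an unadjusted p under 0.05 there were 4 members, with mt-Co1 and mt-Cytb higher and Ndufs5 and Cox5a lower in CB2 KO, where 8.6% of all genes passed (4.33% higher, 4.27% lower). DESeq2, run as an alternative, called 363 genes or 2.58%, of which 1.19% were higher and 1.39% lower in CB2 KO. The lower ones held 1 member, Ndufs5. In 11 members the 2 groups did not overlap, 7 higher and 4 lower in CB2 KO, where 6.91% of all tested genes did not overlap with CB2 KO higher and 7.2% with CB2 KO lower (14.1% in either direction). In bulk RNA, fewer cells of a type and less RNA per cell cannot be told apart.

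The nuclear members centred on no difference and the mt- members lay above it. The median log2 fold change was 0.01 over the 93 tested nuclear members, with 51 positive and 42 negative, and 0.25 over the 13 mt- members, with 12 positive and 1 negative, beside -0.0003 over all tested genes. The single negative mt- gene was mt-Co3, which turned to 0.01 when counts were scaled by library size alone. This position of the mt- genes rested largely on 1 library. Relative to the WT mean on the log2 scale, the median mt- gene lay at 0.50 for the library labelled CB2 KO replicate 1, at 0.13 for replicate 2 and at -0.03 for replicate 3. With the first of these left out, the mt- median was 0.05, with 7 positive and 6 negative, and the nuclear median -0.01.

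**Figure D2:**
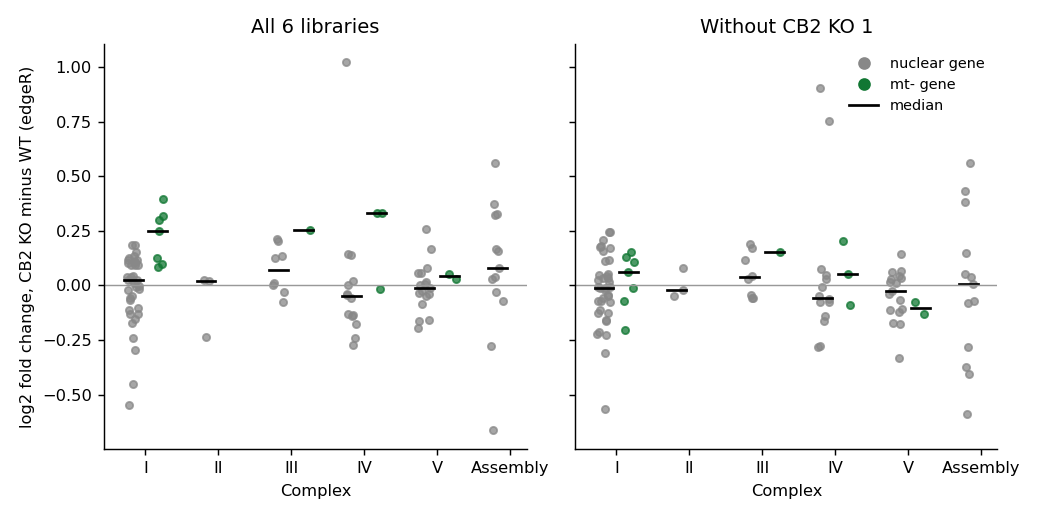
Each point is the log2 fold change (edgeR, CB2 KO minus WT) of 1 tested member by complex, with bars at the medians; the left panel uses all 6 libraries and the right panel leaves out the library labelled CB2 KO replicate 1. The mt- genes have a median of 0.25 on the left and 0.05 on the right, and the nuclear genes stay around 0.

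The ranks of the libraries come from the same CPM values and so restate these shifts gene by gene, without separate support. The library labelled CB2 KO replicate 1 was the highest of the 6 for 12 of the 13 mt- genes, all but mt-Co3. CB2 KO replicate 2 lay above all 3 WT libraries for 7 mt- genes and below all 3 for 1, and replicate 3 lay above for 3 and below for 3. For the 93 tested nuclear members these counts were 32 above and 25 below for replicate 1, 18 and 32 for replicate 2, and 26 and 14 for replicate 3. None of these counts was taken over all tested genes, so they do not set the members apart.

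The mt- genes that encode the catalytic core of complex IV differed among themselves. mt-Co1, the subunit that holds the oxygen-binding site, was at 964, 886 and 933 CPM in WT and 1365, 1137 and 994 CPM in CB2 KO. The groups did not overlap, with CB2 KO replicate 3 the closest to WT, and the log2 fold change was 0.33 (SE 0.11, adjusted p = 0.47). With the library labelled CB2 KO replicate 1 left out it was 0.20 (adjusted p = 0.583). mt-Co2, which takes electrons from cytochrome c, was at 431, 439 and 481 CPM against 762, 491 and 440 CPM. Here 1 library set the difference: the log2 fold change of 0.33 (adjusted p = 0.692) became 0.05 with the library labelled CB2 KO replicate 1 left out. mt-Co3 was at 816, 650 and 701 against 787, 685 and 671 CPM, with overlapping groups and a log2 fold change of -0.02 (adjusted p = 0.977).

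mt-Cytb, the 1 mitochondrial subunit of complex III and a carrier of its quinone sites, was at 1199, 1252 and 1203 CPM in WT and 1652, 1442 and 1258 CPM in CB2 KO. All CB2 KO libraries lay above WT, though replicate 3 by little, and the log2 fold change was 0.25 (SE 0.09, adjusted p = 0.518), or 0.15 (adjusted p = 0.641) with the library labelled CB2 KO replicate 1 left out. In complex V, mt-Atp6 was at 749, 643 and 668 against 847, 660 and 593 CPM and mt-Atp8 at 258, 227 and 234 against 291, 238 and 216 CPM. Both spanned the WT range on either side, with log2 fold changes of 0.03 and 0.05 and adjusted p of 0.969 and 0.935. Their signs turned negative, to -0.13 and -0.07, with the library labelled CB2 KO replicate 1 left out.

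The 7 mt- genes of complex I encode its membrane arm, the part that pumps protons. mt-Nd2 was at 139, 131 and 130 CPM in WT and 229, 154 and 141 CPM in CB2 KO, the third mt- gene whose groups did not overlap. Its log2 fold change of 0.40 was the largest of the 13 mt- genes in the fit of all 6 libraries (SE 0.19, adjusted p = 0.626); it was 0.15 with the library labelled CB2 KO replicate 1 left out. mt-Nd1 was at 722, 651 and 715 against 980, 783 and 713 CPM, and mt-Nd4 at 305, 294 and 263 against 444, 341 and 287 CPM. In both, CB2 KO replicate 3 lay within the WT range, and the log2 fold changes were 0.25 and 0.32 with adjusted p of 0.621 and 0.637, or 0.11 and 0.13 with the library labelled CB2 KO replicate 1 left out. mt-Nd5 was at 323, 320.2 and 275 against 376, 322 and 285 CPM. The remaining genes were low: mt-Nd6, the only one read from the opposite strand, was at 73.3, 64.3 and 60.3 against 84.1, 68.1 and 57 CPM, mt-Nd3 at 41.1, 35 and 37 against 57.3, 29.2 and 36.9 CPM, and mt-Nd4l at 18.2, 18.9 and 13.2 against 26.9, 20.7 and 14 CPM. These 4 overlapped between groups, with log2 fold changes from 0.08 for mt-Nd6 to 0.30 for mt-Nd4l and adjusted p from 0.854 to 0.935. With the library labelled CB2 KO replicate 1 left out, mt-Nd3, mt-Nd5 and mt-Nd6 turned negative, at -0.21, -0.01 and -0.07, and mt-Nd4l was at 0.06. Since mt-Nd6 and mt-Nd5 overlap by 14 bases on opposite strands and no strand setting is given in the sources used here, reads of that stretch cannot be told apart.

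**Figure D3:**
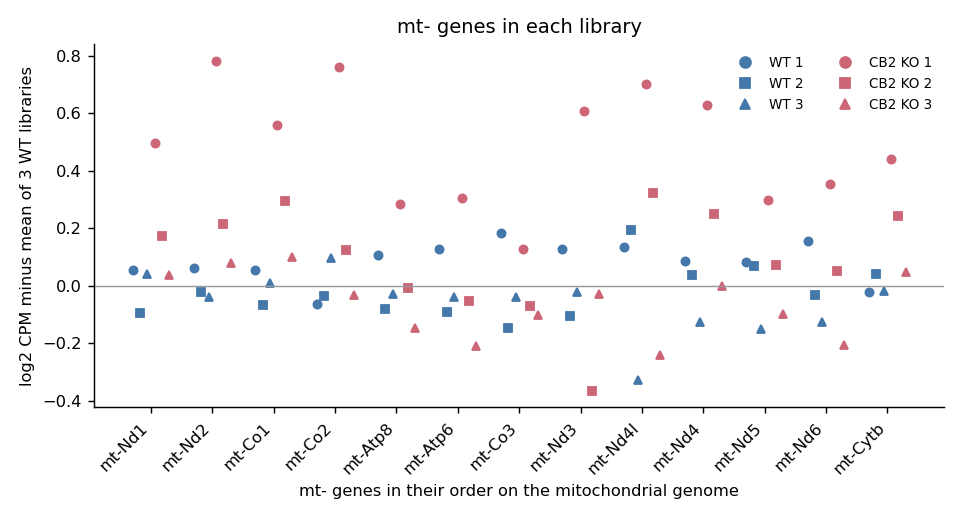
For each mt- gene, in its order on the mitochondrial genome, the points give log2 CPM in the 6 libraries minus the mean of the 3 WT libraries (WT blue, CB2 KO red, replicate by symbol). CB2 KO 1 is the highest point for 12 of 13 genes, and CB2 KO 3 lies above all WT points for 3.

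The balance between the genomes, taken within each library and so free of library scaling, also differed most in that library. The mt- genes held 0.599%, 0.554% and 0.566% of all estimated counts in WT and 0.8%, 0.64% and 0.573% in CB2 KO. The nuclear members held 1.48%, 1.35% and 1.38% against 1.42%, 1.38% and 1.43%. The log2 ratio of mt- to nuclear counts was -1.30, -1.28 and -1.28 in WT and -0.83, -1.11 and -1.33 in CB2 KO. The WT libraries were close together, CB2 KO replicates 1 and 2 lay above them and replicate 3 below, and the means differed by 0.20, or by 0.07 with the library labelled CB2 KO replicate 1 left out. No test was made on these sums.

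By complex, the mean difference in balance was widest in complex IV. Its log2 ratio of mt- to nuclear counts was -0.30, -0.30 and -0.25 in WT and 0.23, 0.01 and -0.22 in CB2 KO. The groups did not overlap, and the means differed by 0.29, or by 0.18 with the library labelled CB2 KO replicate 1 left out. In complex I the mean difference was 0.24 (0.09 without that library), in complex III 0.14 (0.07) and in complex V 0.03 (-0.13), and in each of these 3 the groups overlapped. With the counts of copies added to their members, an alternative chosen after seeing the data, the complex IV ratio was 0.28, 0.27 and 0.33 in WT and 0.77, 0.57 and 0.32 in CB2 KO. The groups then overlapped, and mt- counts exceeded nuclear counts in every library.

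**Figure D4:**
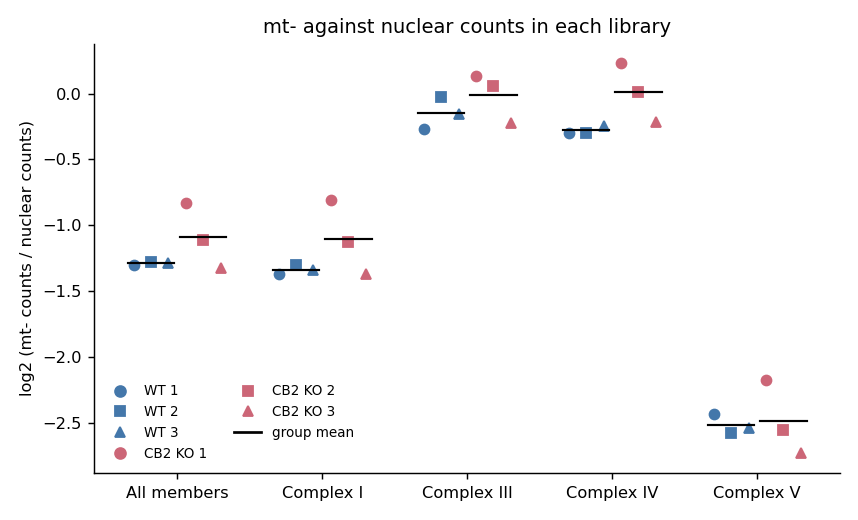
Points give the log2 ratio of mt- counts to nuclear counts in each library, over all members and for the 4 complexes with both kinds of subunit; black bars are group means. WT libraries are tightly grouped over all members (-1.30 to -1.28), and the CB2 KO libraries spread from -1.33 to -0.83.

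Among the nuclear subunits of complex I, 20 of 37 had log2 fold changes above 0 and 17 below, the median was 0.02, and none passed the threshold in edgeR. Ndufs5 was at 89, 79.6 and 85.9 CPM in WT and 59.8, 59.6 and 54.4 CPM in CB2 KO. Every CB2 KO library lay well below every WT library, with a log2 fold change of -0.55 (SE 0.14, adjusted p = 0.345 by edgeR and 0.000494 by DESeq2). This was the smallest edgeR p of any member. The difference was not seen once the copy was counted with the gene. Ndufs5-ps was at 35.3, 29.5 and 34 CPM in WT and 70.1, 69.8 and 63.9 CPM in CB2 KO, the opposite direction (log2 fold change 1.05, SE 0.16, adjusted p = 0.104 by edgeR). The copy took 28.4%, 27% and 28.3% of the joint counts in WT and 54%, 53.9% and 54% in CB2 KO. The joint level was 124, 109 and 120 CPM in WT and 129.9, 129.4 and 118 CPM in CB2 KO, with overlapping groups and a log2 fold change of 0.10 (adjusted p = 0.86). Among the 39 members with copies, the copy's share did not overlap between groups for Ndufs5, Cox7c and mt-Nd3 only. For Cox7c it was 53.5%, 51.9% and 54.3% in WT against 50.8%, 51.1% and 51.8% in CB2 KO. For mt-Nd3 it was 13.91%, 13.91% and 13.55% against 14.49%, 20.72% and 13.95%. In both of these the groups nearly touched. Ndufs5 (chr4:123712710-123718202, minus strand) lies 12.2 Mb from Cnr2 and 2.18 Mb outside the span that the rule leaves out, and the 4 other members on chromosome 4 lie at least 19.8 Mb from Cnr2.

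**Figure D5:**
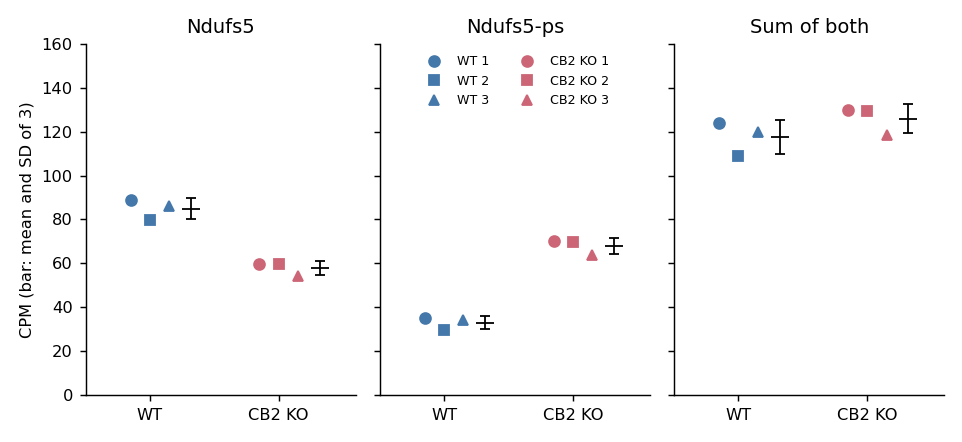
CPM of Ndufs5, of its copy Ndufs5-ps and of their sum in each library, with the mean and SD of 3 libraries beside the points. The gene is lower and the copy higher in all CB2 KO libraries, and the sums overlap between 109 and 129.9 CPM.

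The other complex I subunits with the smallest p were Ndufs1 and Ndufb11. Ndufs1, the large iron-sulphur subunit of the peripheral arm, was at 158, 168 and 132 CPM in WT and 89.7, 102 and 148 CPM in CB2 KO. CB2 KO replicate 3 lay within the WT range, and the log2 fold change was -0.45 (SE 0.20, adjusted p = 0.587). Ndufs1 exons overlap genes on the opposite strand, Eef1b2 among them. Ndufb11, an accessory subunit of the membrane arm, was at 131, 106 and 128 against 88.2, 100.4 and 109.5 CPM, with overlapping groups and a log2 fold change of -0.30 (adjusted p = 0.62). The abundant Ndufb7 was at 207, 160 and 177 against 209, 180 and 172 CPM. Ndufb4, the least abundant subunit of complex I, was at 18.5, 12.7 and 13.2 against 16.5, 16.6 and 18 CPM. Its copy Ndufb4c, identical over 390 bases, took 67.3%, 70.4% and 77.2% of their joint counts in WT. Ndufb1-ps was higher and Ndufb3, another accessory subunit, lower in all CB2 KO libraries, with log2 fold changes of 0.18 and -0.15 and adjusted p of 0.723 and 0.807.

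Complex II, the succinate dehydrogenase shared with the citrate cycle, had overlapping groups for all 3 members. Sdha, its flavoprotein, was at 359, 335 and 327 CPM in WT and 366, 339 and 330 CPM in CB2 KO (log2 fold change 0.02, SE 0.07, adjusted p = 0.963). Sdhd was at 227, 206 and 189 against 128, 200.3 and 202 CPM. The library labelled CB2 KO replicate 1 was the lowest of the 6, and the log2 fold change of -0.24 (adjusted p = 0.774) became -0.05 without it. Sdhc, the other membrane anchor, was at 103, 102 and 119 against 102, 119.5 and 107.5 CPM. Sdhb is not among the members.

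Of the 8 nuclear subunits of complex III, 6 had positive log2 fold changes, with a median of 0.07. Uqcrq was at 210.5, 173 and 183 CPM in WT and 233, 203 and 223 CPM in CB2 KO, with a log2 fold change of 0.21 (SE 0.11, adjusted p = 0.638). The core subunits Uqcrc1 and Uqcrc2 had log2 fold changes of 0.13 and 0.20 (adjusted p of 0.706 and 0.739) and overlapping groups. Uqcr11, the least abundant in CPM, was at 88.6, 75.7 and 84.9 against 81.8, 84.6 and 85.1 CPM. The mt- and nuclear parts of complex III thus had medians of 0.25 and 0.07, and both were closer to 0 with the library labelled CB2 KO replicate 1 left out, at 0.15 and 0.04.

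The nuclear subunits of complex IV had a median log2 fold change of -0.05, with 5 positive and 9 negative, the opposite sign to their mt- partners, whose median was 0.33. With the library labelled CB2 KO replicate 1 left out these medians were -0.06 and 0.05. Cox5a, a subunit that faces the matrix, was at 315, 270.2 and 306 CPM in WT and 267, 235 and 254 CPM in CB2 KO. The groups came close but did not overlap, and the log2 fold change was -0.24 (SE 0.09, adjusted p = 0.543), or -0.28 with the library labelled CB2 KO replicate 1 left out. Cox6a1 was at 366, 343 and 336 against 332, 303 and 319 CPM, again without overlap, with a log2 fold change of -0.13 (SE 0.07, adjusted p = 0.669). Cox7a1, the heart and muscle form of Cox7a, was at 0.745, 0.634 and 0.793 against 1.69, 1.75 and 0.872 CPM. This came from 13 to 37 counts per library, and its log2 fold change of 1.02 had an SE of 0.48 (adjusted p = 0.585). Cox6a2, another muscle form, was at 3.68, 1.51 and 3.17 against 0, 3.87 and 5.7 CPM, with 0 counts in the library labelled CB2 KO replicate 1, which allows up to 0.151 CPM by counting error alone. Cox6b2, the testis form, was at 6.8, 8.05 and 3.28 against 2.73, 7.64 and 4.83 CPM.

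The ATP synthase includes the most abundant nuclear member. Atp5b was at 1831, 1939 and 1819 CPM in WT and 1745, 1961 and 1939 CPM in CB2 KO, with a log2 fold change of 0.01 (SE 0.06, adjusted p = 0.964). The median over its 17 nuclear subunits was -0.01, with 8 positive and 9 negative. Atp5d, the delta subunit of the central stalk, was at 304, 327 and 288 against 356, 334 and 345 CPM. It was the 1 subunit of the complex whose groups did not overlap (log2 fold change 0.17, SE 0.08, adjusted p = 0.6). Atp5g1, Atp5g2 and Atp5g3 encode the same membrane-ring protein. Atp5g3 was at 379, 312 and 329 against 312, 303 and 298 CPM (log2 fold change -0.16, adjusted p = 0.679). Atp5g2 was at 6.52, 6.29 and 5.04 against 9.29, 5.66 and 6.57 CPM, while its copy Gm10175, identical over 645 bases, took 93.8%, 94.1% and 95.7% of their joint counts in WT. Counted together they had 109.8 ± 5.92 CPM against 119 ± 20.8 CPM (SD, n = 3 each). Atp5k, a small subunit, was at 82.8, 67.4 and 81.1 against 60.8, 57.7 and 86.2 CPM.

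The 13 assembly factors had a median log2 fold change of 0.08, with 9 positive and 4 negative, which was 0.01 with the library labelled CB2 KO replicate 1 left out. Ndufaf7, which methylates a complex I subunit during assembly, was at 33.8, 31.6 and 26.7 CPM in WT and 36.7, 48.8 and 33.3 CPM in CB2 KO (log2 fold change 0.37, SE 0.23, adjusted p = 0.704), or 0.18 with CB2 KO replicate 2 left out. Sdhaf1, needed to put iron-sulphur clusters into complex II, was at 14.6, 12.2 and 17.9 against 26.6, 12.8 and 27.2 CPM (log2 fold change 0.56, SE 0.37, adjusted p = 0.73), or 0.86 with CB2 KO replicate 2 left out. Both overlapped between groups.

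Copies were common among the members. By sequence, 39 members had 56 copies in the table at 90% identity or more. Of these copies, 48 belonged to 33 nuclear members and 8 to 6 mt- genes. The 6 copies of mt- genes on chromosome 1 lie in 1 run of 3791 bases (chr1:24612407-24616197), on the minus strand, and match mt-Co1, mt-Co2, mt-Atp6, mt-Co3, mt-Nd3 and mt-Nd4l. Gm28437 is identical to mt-Co3 over 783 bases and held 50.02%, 50.9% and 49.98% of their joint counts in WT and 50.01%, 49.99% and 49.99% in CB2 KO. Gm10925 held 46.4%, 46.6% and 45.03% of the joint WT counts with mt-Atp6. Gm29216 and Gm13340, a copy on chromosome 2, together held 24.4%, 22.7% and 23.5% of those with mt-Co1. All copies of mt- genes held 0.189% of all counts in WT and 0.209% in CB2 KO. Adding them to the mt- genes gave shares of 0.803%, 0.731% and 0.752% in WT and 1.05%, 0.839% and 0.752% in CB2 KO. With every copy added to its member before the fit, 0 members passed the threshold by edgeR, as did 0.107% of all genes, and the medians were 0.01 for nuclear and 0.24 for mt- members. Apart from copies, 39 members share exonic bases with another listed gene, and their counts can hold reads of that gene. Some of these overlaps lie on the same strand, such as Atp5o with Donson, where no strand setting would separate the reads. For overlaps on opposite strands the strand setting matters, and it is unknown.

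Promoter letters, which the rule did not use, were searched in the nuclear members. RefSeq promoter windows of GRCm38.p6, from 250 bases before to 50 after a start site, were matched by symbol to 77 of the 94 nuclear members, and 4 motifs were sought on both strands. The NRF1 motif (GCGCA, any base, then GCGC), named for a factor that drives many respiratory genes, was in the window of 21 of 77 members, or 27.3%, against 12.3% of the 9343 tested genes with a window and 5.19% of all 27025 genes. The ETS core CCGGAAG, bound by the GABP factor among others, was in 21 members, or 27.3%, against 21.8% of tested genes. The YY1 motif AAGATGGCG was in 8, or 10.4%, against 3.85%, and the TATA box TATAAA in 7, or 9.09%, against 8.52%. Motifs may overlap, 5 members held both NRF1 and ETS letters, and 42 of 77 held at least 1 of NRF1, ETS and YY1. Neither of these counts was taken over all tested genes, so they do not set the members apart. The ETS and TATA shares were near those of tested genes. Such a match is a description of letters and not a bound site. For complexes I, II, IV and V, the most abundant subunit per length with these letters wholly before its RefSeq start site and outside the gene as GENCODE gives it is shown, with the NRF1 match in capitals, at chr17:56717682-56717731 (plus), chr9:50603899-50603948 (minus), chr5:115349046-115349095 (minus) and chr11:115420031-115420080 (minus).
Ndufa11: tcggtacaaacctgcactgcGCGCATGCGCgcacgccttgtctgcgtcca
Sdhd: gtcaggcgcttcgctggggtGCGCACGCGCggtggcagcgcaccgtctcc
Cox6a1: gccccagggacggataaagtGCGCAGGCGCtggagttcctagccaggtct
Atp5h: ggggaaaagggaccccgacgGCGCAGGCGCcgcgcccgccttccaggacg
Of these 4 genes, Ndufa11 was at 101 ± 13.8 against 109.8 ± 16 CPM and Atp5h, of the peripheral stalk of complex V, was at 149.7 ± 19.2 against 141 ± 9.44 CPM (SD, n = 3 each). Sdhd and Cox6a1 are given above.

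The wider mitochondrial programme was read from 6 lists of genes outside the members, and 0 genes of any list passed the threshold by edgeR. Over all tested genes 0.107% passed it, and 8.6% were at an unadjusted p under 0.05. Of 12 tested regulators of mitochondrial biogenesis, such as the Nrf1, Gabpa and Tfam transcription factors, 2 had positive and 10 negative log2 fold changes, with a median of -0.16 and 0 at an unadjusted p under 0.05. Those with the smallest p were Gabpb2, at 36.1 ± 8.46 against 25.6 ± 3.92 CPM (log2 fold change -0.48, adjusted p = 0.66), and Sirt3, a mitochondrial deacetylase, at 17.3 ± 4.15 against 11.7 ± 4.55 CPM (-0.62, adjusted p = 0.697; SD, n = 3 each). Ppargc1a and Perm1 are not analysed here. The 34 tested genes of mitochondrial DNA transcription, replication and RNA processing had 18 positive and 16 negative values, a median of 0.10 and 4 genes at an unadjusted p under 0.05. Within it Grsf1, an RNA-binding protein of mitochondrial RNA granules, was at 38.1, 29.7 and 40.3 CPM in WT and 58.6, 56.3 and 44.7 CPM in CB2 KO (log2 fold change 0.58, SE 0.20, adjusted p = 0.486). Pnpt1, which degrades mitochondrial RNA, was at 82.3, 45.7 and 71.6 against 32.2, 41.7 and 49.6 CPM (log2 fold change -0.70, SE 0.28, adjusted p = 0.551).

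Among 37 tested assembly factors with other names, 25 were positive and 12 negative, with a median of 0.10. Of these 37 genes, 4 were at an unadjusted p under 0.05, beside 8.6% of all tested genes. Cox10, which makes the heme A precursor of complex IV, was at 38, 31.7 and 29.1 CPM in WT and 76, 61.5 and 50.6 CPM in CB2 KO. All CB2 KO libraries lay above WT (log2 fold change 0.93, SE 0.22, adjusted p = 0.324 by edgeR and 0.00141 by DESeq2). Lyrm7, an assembly factor of complex III, was at 3.08 ± 1.42 against 8.02 ± 2.57 CPM (SD, n = 3 each; log2 fold change 1.42, SE 0.51, adjusted p = 0.487). Of 77 mitochondrial ribosomal proteins, 43 were positive and 34 negative, with a median of 0.02 and 2 at an unadjusted p under 0.05. Mrps27 was at 47.7, 40.8 and 38.5 CPM in WT against 15.2, 20.5 and 18.7 CPM in CB2 KO, without overlap (log2 fold change -1.23, SE 0.23, adjusted p = 0.169 by edgeR and 1.32e-06 by DESeq2). Mrpl28 was at 124 ± 15.4 against 93.5 ± 10.1 CPM (log2 fold change -0.41, adjusted p = 0.492).

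The 20 genes of pyruvate dehydrogenase and the citrate cycle divided evenly, 10 and 10, with a median of -0.02 and 0 at an unadjusted p under 0.05. Fumarase, Fh1, was at 106, 90.2 and 95.2 CPM in WT and 62.8, 84.5 and 85.2 CPM in CB2 KO without overlap (log2 fold change -0.33, adjusted p = 0.623). Ogdh was at 323 ± 35.3 against 276 ± 34.7 CPM. The 21 genes of electron carriers and coenzyme Q synthesis had 9 positive and 12 negative values, a median of -0.05 and 0 genes at an unadjusted p under 0.05, with Coq4 at 6.63 ± 3.09 against 11.7 ± 6.12 CPM and Pdss2 at 9.97 ± 2.38 against 6.52 ± 2.19 CPM (SD, n = 3 each). The nuclear subunits were measured with a median SE of 0.13 on the log2 scale. The log2 fold changes between their quartiles of -0.09 and 0.09 were smaller than that SE and not detectable with these libraries. That SE is not the limit of detection: Ndufs5, at -0.55 with an SE of 0.14, did not pass the threshold by edgeR.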

How the data were processed

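RNA from 6 libraries was analysed, with groups and replicate numbers taken from the sample titles. The authors deposited estimated counts per gene, and the name they gave the table says that Partek's expectation-maximization method made them. A read that fits a gene and its copy is then shared out, which can move counts between a member and its copies. The submitters' processing notes name CASAVA 1.8.2, STAR (version written as 3.5.3), Partek and mm10. The authors also deposited a normalized signal, used here only for an alternative. It is the count with 1 added, over a library factor that sets the 75th percentile to 44.6. No read depth beyond these counts, 17141698 to 21621008 per library, is given, and limits from counts cover counting error only.

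Estimated counts were rounded and tested with edgeR 4.0.16 in R 4.3.3 (TMM, filterByExpr, glmQLFit, robust=TRUE, legacy=FALSE; Benjamini-Hochberg over 14084 genes, threshold 0.05). CPM uses TMM-scaled library sizes, and a log2 fold change above 0 is higher in CB2 KO. DESeq2 1.42.0, limma 3.58.1 and other settings were alternatives. No library pair agreed within sampling noise. Copies were pseudogenes in the table, and Cox5b-ps, that BLAST 2.17.0 aligned to a member's GENCODE M21 transcript at 90% identity or more over at least 100 bases and 50% of the copy. The code was tested on simulated data.

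The members, lists and alternatives were chosen with earlier results of these data known, and adding copies to members was chosen after the files were seen. Genes named were all mt- genes; in each complex the 3 nuclear subunits with the smallest p, the most abundant per length and the least abundant tested; 2 assembly factors; tissue isoforms; Cnr2; and up to 2 genes per pathway list with the smallest p. Other genes were named after their values were seen.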

Additional observations from a re-analysis of the deposited data

Results flagged for a closer look

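The table also lists the 2 ribosomal RNAs of the mitochondrial DNA, which are not protein coding and enter no comparison above. Both gave signal in every library, with a mean over the 6 libraries of 114.5 CPM for mt-Rnr1 and 1116 CPM for mt-Rnr2, above the limit of 0.139 to 0.175 CPM that a count of 0 allows. mt-Rnr2 was at 1175, 901 and 979 CPM in WT and 1452, 1138 and 1049 CPM in CB2 KO, and mt-Rnr1 at 136, 87 and 87.8 against 165.2, 97.9 and 114 CPM. The groups overlapped in both, and the library labelled CB2 KO replicate 1 was the highest of the 6 in both.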

How the results depend on the processing

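The count of genes past the threshold, 15 by edgeR, was 363 by DESeq2 and 3 with a replicate block, and ran from 3 to 8 when 1 library was left out; the cause was not tested. Members past the threshold numbered 1 by DESeq2 (Ndufs5, log2 fold change -0.54, adjusted p = 0.000494) and 0 under the 16 other fit alternatives. Same-numbered WT and CB2 KO libraries correlated at 0.07, 0.03 and 0.02 in their deviations from the group means. Differently numbered libraries correlated at -0.06 to 0.03. With so few libraries these values cannot settle whether the numbers pair the samples. With the replicate block 0 members passed and the medians were 0.01 for nuclear and 0.24 for mt- members. The mt- median stayed positive in the 16 alternatives it was computed under, from 0.05 without the library labelled CB2 KO replicate 1 to 0.34 without CB2 KO replicate 3. The nuclear median ran from -0.04 to 0.06. Of 837 alternative values for 50 named genes, 804 kept direction and side of the threshold, 30 changed sign with neither value past the threshold, 25 of these when 1 library was left out, and 3 came past the threshold, all by DESeq2 (Ndufs5, Cox10 and Mrps27). Cox7a1 had 13 to 37 counts per library, which is the depth behind its value.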
